A study of Mus musculus with 9 samples.

Results

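The open chromatin of Res499, a checkpoint blockade resistant melanoma line that was derived from B16, was compared with that of untreated B16 cells by ATAC-seq. The comparison took the peak lists of 6 of the 9 libraries of the series, 3 labelled 499 without treatment and 3 labelled B16 without treatment, on chromosomes 1 to 19 and X. In each library the 9214 peaks with the highest −log10 p of the peak caller were kept, which is the length of the shortest list, and overlapping peaks were merged. This used 55284 of the 96888 peaks of these libraries and gave 14452 regions, all of which were compared. A region counted as called in a library when a used peak overlapped it. Its strength was the rank percentile of that peak in the library, where values close to 100 are the strongest and values close to 0 the weakest of the peaks used.

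B16 is a pigmented mouse melanoma line that is widely grown as a transplanted tumour. Both lines were injected into mice without other treatment, and the tumours were harvested on day 15 and sorted into tumour cells, from which nuclei were taken. Nothing in the labels says whether the 3 replicates of a line came from separate mice, or whether Res499 is 1 clone, so each p-value covers library-to-library spread alone, which may be technical. The labels name neither the age or strain of the mice nor the marker used for sorting.

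In ATAC-seq a transposase cuts DNA that is not wrapped tightly around nucleosomes and leaves adaptors there, so that reads pile up at active promoters and enhancers. Promoters of genes that most cells use tend to give strong peaks in any cell type, whereas distal peaks differ more between cell states. In melanoma cells the pigment programme run by MITF, the growth signals of the Ras-MAPK cascade and the antigen presentation genes driven by interferon are among the programmes read from such peaks.

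The starts of 8 genes are shown because the regions over them carry the results that follow. Tap1 and Stat2 had stronger regions in each Res499 library. Among the used peaks, the regions of Rps6ka1, Rpl26, Klc1 and Slc38a7 were called in Res499 only. Those of Tyrp1 and Pdha1 were called in untreated B16 only. In the full lists, the regions called in Res499 only each had a peak in all 3 untreated libraries. Those of Tyrp1 and Pdha1 each had a peak in 1 Res499 library. Each line gives the 250 bases before the start, 5′ to 3′ on the strand of the gene, from RefSeq on GRCm38.p6, with the motif named after it in capitals.
Tap1 (chr17:34187306-34187555, plus strand, GC box): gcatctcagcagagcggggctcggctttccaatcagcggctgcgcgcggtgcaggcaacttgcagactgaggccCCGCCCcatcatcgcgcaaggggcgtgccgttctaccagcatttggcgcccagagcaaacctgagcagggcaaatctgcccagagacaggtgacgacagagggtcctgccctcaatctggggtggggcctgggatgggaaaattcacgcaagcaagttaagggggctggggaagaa
Stat2 (chr10:128270248-128270497, plus strand, interferon-stimulated response element): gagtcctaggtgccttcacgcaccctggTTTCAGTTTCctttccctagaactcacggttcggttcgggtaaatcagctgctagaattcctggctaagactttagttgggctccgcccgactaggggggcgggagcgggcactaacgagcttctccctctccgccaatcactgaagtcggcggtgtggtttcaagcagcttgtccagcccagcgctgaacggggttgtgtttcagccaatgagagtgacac
Rps6ka1 (chr4:133887798-133888047, minus strand, TEAD motif): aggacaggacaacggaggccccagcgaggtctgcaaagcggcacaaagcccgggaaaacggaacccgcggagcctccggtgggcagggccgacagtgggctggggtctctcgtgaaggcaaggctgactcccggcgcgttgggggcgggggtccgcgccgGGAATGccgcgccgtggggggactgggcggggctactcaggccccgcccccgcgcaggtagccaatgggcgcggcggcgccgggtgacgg
Rpl26 (chr11:68901316-68901565, plus strand, cAMP response element): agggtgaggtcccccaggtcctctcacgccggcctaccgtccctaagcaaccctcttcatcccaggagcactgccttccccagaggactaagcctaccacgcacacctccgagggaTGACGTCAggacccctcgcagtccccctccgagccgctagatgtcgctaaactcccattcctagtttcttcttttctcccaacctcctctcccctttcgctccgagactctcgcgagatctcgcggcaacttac
Klc1 (chr12:111758618-111758867, plus strand, cAMP response element): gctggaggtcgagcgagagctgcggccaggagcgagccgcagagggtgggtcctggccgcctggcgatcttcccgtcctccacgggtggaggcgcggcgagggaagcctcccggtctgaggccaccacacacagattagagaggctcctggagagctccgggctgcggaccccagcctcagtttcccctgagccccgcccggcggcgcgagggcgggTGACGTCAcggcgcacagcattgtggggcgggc
Slc38a7 (chr8:95853492-95853741, minus strand, AP-1 motif overlapping an M-box core, and an E-box): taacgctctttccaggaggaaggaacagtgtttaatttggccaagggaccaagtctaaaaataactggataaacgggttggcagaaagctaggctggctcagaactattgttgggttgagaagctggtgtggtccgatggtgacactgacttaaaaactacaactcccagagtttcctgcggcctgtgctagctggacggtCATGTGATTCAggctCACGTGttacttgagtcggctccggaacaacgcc
Tyrp1 (chr4:80833963-80834212, plus strand, M-box core): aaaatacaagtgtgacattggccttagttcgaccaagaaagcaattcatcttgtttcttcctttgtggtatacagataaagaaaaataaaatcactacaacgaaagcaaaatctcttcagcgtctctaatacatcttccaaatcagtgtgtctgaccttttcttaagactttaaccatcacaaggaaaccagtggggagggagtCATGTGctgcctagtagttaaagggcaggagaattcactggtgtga
Pdha1 (chrX:160138431-160138680, minus strand, M-box core): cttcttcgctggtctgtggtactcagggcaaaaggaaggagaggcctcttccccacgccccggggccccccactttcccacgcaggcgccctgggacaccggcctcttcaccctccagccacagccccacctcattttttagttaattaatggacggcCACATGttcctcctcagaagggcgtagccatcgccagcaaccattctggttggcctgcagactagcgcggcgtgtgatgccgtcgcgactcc

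The libraries differed in ways that touch each result. Res499 had 12120 ± 3099 peaks on these chromosomes and untreated B16 had 20176 ± 5159 (SD, n = 3 each, two-sided exact permutation p = 0.2). The weakest peak used had a −log10 p of 7.23 ± 2.04 in Res499 and 14.4 ± 2.37 in untreated B16 (SD, n = 3 each, two-sided exact permutation p = 0.1, the smallest that 3 against 3 can give). The used peaks had a median width of 427 ± 87.5 bp in Res499 and 657 ± 74.4 bp in untreated B16 (SD, n = 3 each, two-sided exact permutation p = 0.1). The −log10 p at the limit and the median width were thus lower in each Res499 library, and their part in the results was not tested. The median fold of the used peaks, 6.12 ± 0.761 in Res499 and 8.71 ± 2.17 in untreated B16, overlapped (SD, n = 3 each, two-sided exact permutation p = 0.2). The shortest peak was under 150 bp in Res499 replicates 1 and 2 and untreated replicate 2 (a short class) and above it in the other 3 libraries (a long class). The numbers of reads are not in the peak lists, so the depth is unknown.

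The 2 groups resembled each other about as much as libraries within a group did. The share of regions called in both of 2 libraries among those called in either was on average 0.620 within Res499, 0.665 within untreated B16 and 0.624 between the groups. Over the 4998 regions called in all 6 libraries, Spearman's rho of the percentiles was on average 0.464 within Res499, 0.585 within untreated B16 and 0.509 between them. Untreated replicates 2 and 3 stood as a pair, with a rho of 0.749, whereas no other pair was above 0.555. These are descriptions over regions of the same libraries.

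Markers fixed for other cell types were almost absent from the lists. No end of the 12 T and NK cell markers, the 8 endothelial or the 8 keratinocyte markers had a region in any library. Of 12 myeloid markers Spi1 alone had one, in Res499 replicate 2, and of 8 fibroblast markers Col1a1 alone, in Res499 replicate 3. Of 7 melanocyte markers, Tyr, Tyrp1, Dct, Pmel and Mitf had a region in at least 1 library, and Mlana and Sox10 had none at a gene end. The Pmel region is shared with other coding ends, and the only annotated start under it was that of Rab5b.

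Regions over the end of 1 coding gene took a larger share of the used peaks in each Res499 library, and regions inside coding genes or near them a smaller one. Regions within 1 kb of an end of 1 coding gene made up 58.7%, 56.9% and 56.1% of the used peaks in Res499 and 54.4%, 54.8% and 53.2% in untreated B16, a difference of 3.13 points. Regions inside coding genes but away from their ends made up 14.6%, 16% and 16% in Res499 and 16.8%, 17.4% and 18.2% in untreated B16. Intergenic regions within 50 kb of a coding gene made up 5.80%, 6.32% and 6.31% against 6.73%, 7.08% and 7.34%. In these 3 of the 6 classes (50%) the groups did not overlap, and each had a two-sided exact permutation p = 0.1 (n = 3 each, Benjamini-Hochberg adjusted p = 0.200), so none passed the threshold. The differences were 3.05, −2.14 and −1.02 points within the short class and 2.29, −1.49 and −0.727 points within the long class. Because these groups do not overlap, the sign within each fragment class was fixed in advance, and only the sizes could vary. Regions shared by the ends of several coding genes, regions at ends of non-coding genes alone and intergenic regions farther than 50 kb overlapped between the groups.

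**Figure D1:**
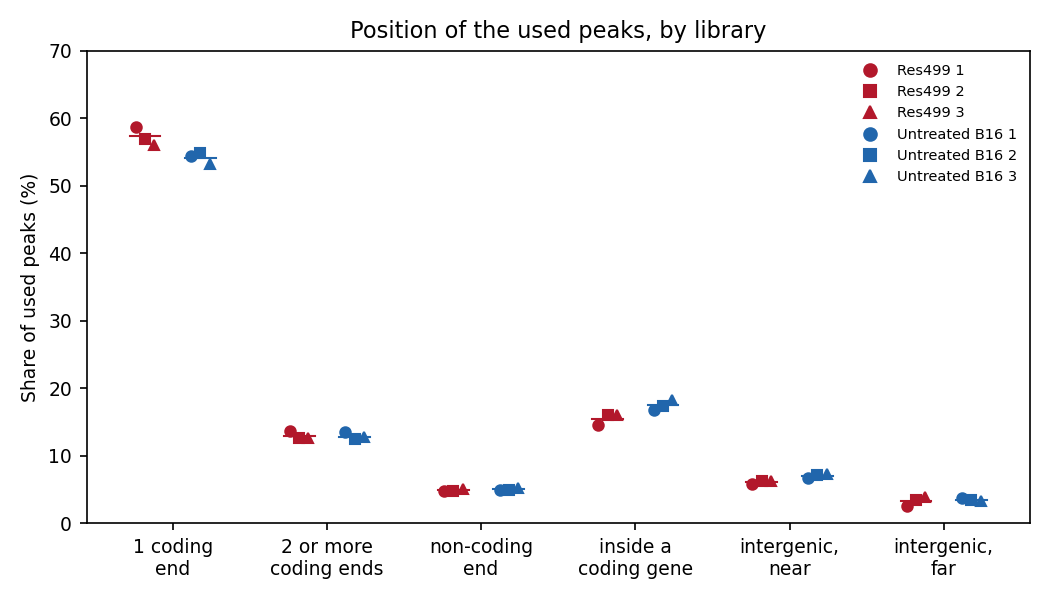
Share of the used peaks of each library (vertical axis, percent) in each of 6 position classes (horizontal axis). Each symbol is 1 library, and the short lines are the means of the 3 libraries of a group. Symbols of the groups do not overlap for 1 coding end (Res499 higher) or for regions inside coding genes and near intergenic regions (Res499 lower).

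Among the regions that all 6 libraries called, strength was compared by position too. The mean percentile of regions at 1 coding end was 65.5 in Res499 and 64.9 in untreated B16 (two-sided exact permutation p = 0.2, n = 3 each). Regions inside coding genes had a mean percentile of 58.9, 60.9 and 60.9 in Res499 and of 62.2, 62.6 and 63.8 in untreated B16, which did not overlap (two-sided exact permutation p = 0.1, n = 3 each). Regions at non-coding ends had 61.8, 65.6 and 64.6 against 66.9, 65.6 and 67.3, a difference of −2.59 points (two-sided exact permutation p = 0.1, n = 3 each). Near intergenic regions differed by −5.05 points and far intergenic ones by −3.01 (two-sided exact permutation p = 0.2 and 0.6, n = 3 each). Shared coding ends differed by 0.21 points (two-sided exact permutation p = 0.8, n = 3 each).

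Regions called in all 3 libraries of one line and in none of the other were few. Such gained regions of Res499 numbered 86, or 6.53% of the 1318 regions with calls in exactly 3 libraries, and lost regions numbered 142, or 10.8%. Other call rules changed these counts and their balance: 8 and 1212 over all deposited peaks, and 29 and 616 when a peak had to cover 50% of a region. With lists of 4607 peaks, 2 of the 86 and 3 of the 142 kept their call. Of the gained regions, 56 (65.1%) lay at 1 coding end, 11 (12.8%) at shared coding ends and 7 (8.14%) inside coding genes. Of the lost regions, 48 (33.8%) lay inside coding genes, 35 (24.6%) at 1 coding end and 31 (21.8%) in near intergenic sequence. Over all 14452 regions, 46.7% lay at 1 coding end, 10.6% at shared coding ends, 21.8% inside coding genes and 10.1% in near intergenic sequence. Among the 4998 regions called in all 6 libraries, 3276 lay at 1 coding end, 822 at shared coding ends and 497 inside coding genes. The median width was 526 bp for gained and 594 bp for lost regions, against 952 bp for regions called in all 6 libraries. The median of their mean percentiles was 30.8 for gained and 30.9 for lost regions, so that most lay in the weaker part of the lists.

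Most gained regions were also listed in untreated B16, at ranks below the peaks used. Before lists were shortened, 63 of the 86 had a peak in all 3 untreated libraries, 16 in 2, 4 in 1 and 3 in none. Where listed, their median rank was 10580, 11535 and 12276 in untreated replicates 1, 2 and 3, against the limit of 9214. The 3 without any untreated peak, named for that count after their values were seen, were at an end of Tmeff1, at an end of Me3, a mitochondrial malic enzyme, and in intergenic sequence on chromosome 12 whose nearest coding end, that of Dnajb9, was 673685 bp away. The Tmeff1 region had percentiles of 16.4, 1.35 and 36.8 and the Me3 region 41.2, 1.33 and 5.48. Both were thus near the weakest peaks used in Res499 replicate 2.

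Lost regions could be followed in the full lists of Res499 replicates 1 and 3 only, because the list of replicate 2 ends at the peaks used. Of the 142 lost regions, 34 had a peak in both of those lists, 64 in 1 and 44 in none. Their median rank was 11346 in replicate 1, where 87 were listed, and 10075 in replicate 3, where 45 were listed.

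The strongest gained regions had mean percentiles of up to 67.4 in Res499, with uneven values between its libraries. The region at Wipf2, which encodes a regulator of actin assembly, had percentiles of 74.8, 41.2 and 80.5, and ranks of 10145, 15241 and 16235 in the full untreated lists. A region inside the mucin gene Muc3 had percentiles of 66.8, 80.3 and 35.2, and was not listed at all in untreated replicate 1. The region at the start of Rpl26, a protein of the large ribosomal subunit, had 80.3, 51.1 and 46.5. The start of Rps6ka1, the ribosomal S6 kinase RSK1 downstream of ERK, had the most even values, 51.6, 64.7 and 59.4. In untreated B16 the Rps6ka1 region ranked 10365, 10798 and 9698, against the limit of 9214. Its fold was 7.58, 6.79 and 6.05 in Res499 and 5.40, 7.80 and 6.91 in untreated B16, which overlapped.

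Further gained regions lay at Dennd1b, a regulator of Rab35 in membrane traffic, and at the polo-like kinase gene Plk3. The Dennd1b region had percentiles of 9.37, 79.4 and 47.6, so its place among the strongest rested on 2 of the 3 libraries. The region at LOC100504180, a predicted gene, had the highest mean, with 91.9, 56.5 and 54.0. A region inside Sp140 and 3707 bp from Sp110, both genes of nuclear body proteins, had 55.8, 51.3 and 40.0 and was listed in 1 untreated library. The start of Klc1, a kinesin light chain, had 55.2, 26.0 and 51.8, and the start of Slc38a7, an amino acid transporter, 61.6, 58.8 and 6.43.

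The strongest lost regions were mostly distal. An intergenic region 89413 bp from Pde3a, a cAMP phosphodiesterase gene, had percentiles of 75.4, 78.3 and 72.9 in untreated B16 and a peak in Res499 replicate 1 alone, at rank 9863. Regions inside Rbms3, an RNA-binding protein gene, and inside the receptor phosphatase gene Ptprj had 35.7, 81.6 and 72.3, and 56.1, 65.0 and 61.9. A region near the Ras inhibitor gene Spred1, at 28358 bp, had 69.9, 57.0 and 50.9 and no peak in any full Res499 list. A region inside Spata21 had 5.62, 85.5 and 87.4. Together with the region at Gm14410, at 3.38, 95.9 and 95.9, it was strong in untreated replicates 2 and 3 and weak in replicate 1, the pair that also ranked most alike.

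The third group of libraries, B16 cells exposed to interferon gamma, had no part in choosing these regions. When its lists were cut to the same length, 18 of the 86 gained regions were called in none of its 3 libraries, 35 in 1, 26 in 2 and 7 in all 3. Of the 142 lost regions, 32 were called in none, 39 in 1, 55 in 2 and 16 in all 3. No such counts over all regions are given here, so these cannot be set against a background. The Pde3a and Gm14410 regions were called in all 3 interferon-exposed libraries, as was the gained region at Dennd1b.

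No region called in all 6 libraries differed in rank between the lines by the test across regions. With limma on the percentiles of 4998 regions, 0 ranked higher and 0 lower in Res499 at an adjusted p under 0.05 (Benjamini-Hochberg), and the smallest adjusted p was 0.831. At an unadjusted p under 0.05 limma gave 140 higher (2.80%) and 138 lower (2.76%) regions. The 3 Res499 values lay all above the 3 untreated values at 283 regions (5.66%) and all below them at 296 (5.92%). Such full separation, in either direction, has a two-sided exact permutation p of 0.1 for a region, so it does not by itself set a region apart. The differences had a median of −0.36 points and quartiles of −9.41 and 8.87. The median 95% interval, not adjusted for the number of regions, reached 32.1 points to each side, so differences of a smaller size were not detectable at most regions. Larger differences, up to −62.5 and 58.3 points, did not pass the adjusted test either.

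**Figure D2:**
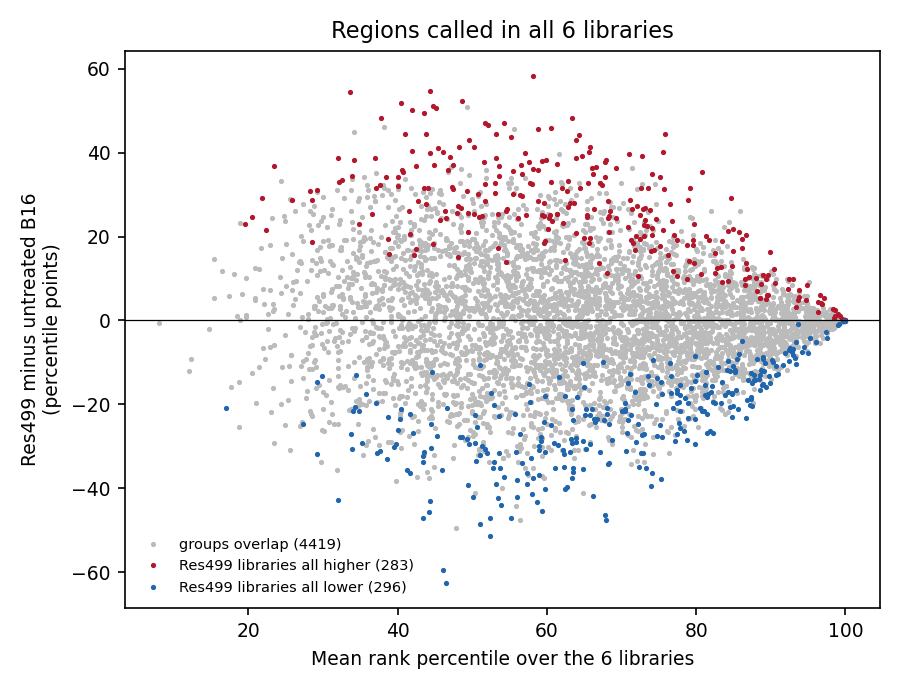
Difference in mean percentile (vertical axis, Res499 minus untreated B16, percentile points) against the mean over the 6 libraries (horizontal axis) for the 4998 regions called in all 6. Each dot is 1 region, in red where all Res499 libraries ranked it higher (283), in blue where all ranked it lower (296) and in grey otherwise. The spread narrows toward the strongest regions.

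Among regions with all Res499 values higher, those with the smallest p were spread over unrelated genes. An intergenic region on chromosome 9 (chr9:3000012-3000642), 334589 bp from the nearest coding end and near the border of the centromeric gap of the assembly, had percentiles of 99.5, 99.6 and 98.8 in Res499 and 63.1, 71.3 and 75.9 in untreated B16. Its difference was 29.2 points (SE 5.98, limma adjusted p = 0.831). With percentiles turned into normal scores it was the only region that passed (limma adjusted p = 0.0179). The end of Sort1, the sorting receptor sortilin, had 90.2, 91.6 and 79.9 in Res499 against 8.39, 61.7 and 16.7, the largest difference toward Res499 at 58.3 points (SE 16.6, limma adjusted p = 0.831).

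The end of Bysl, a factor of small ribosomal subunit assembly that shares its region with Med20, had percentiles of 55.0, 80.1 and 79.7 in Res499 and of 30.6, 14.7 and 5.52 in untreated B16. The end of Pclo, which encodes a scaffold of the presynaptic active zone, had 98.9, 96.5 and 98.5 against 32.8, 74.2 and 53.7. It was among the strongest peaks of each Res499 library. The end of Mylip, a ubiquitin ligase for the LDL receptor, had 74.0, 75.9 and 33.0 against 8.66, 0.526 and 9.94. The ends of Slc38a10, Nudt4, Crlf3 and Pecr and a region inside the DNA repair gene Aptx also had all Res499 values higher, with differences of 47.0 to 51.9 points.

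Regions with all Res499 values lower included several of the strongest untreated peaks. A region inside Prkca, the gene of protein kinase C alpha, had percentiles of 11.3, 31.7 and 2.66 in Res499 and of 78.6, 85.3 and 69.2 in untreated B16. This was the largest difference in this direction, −62.5 points (SE 14.0, limma adjusted p = 0.831). The end of Stil, a centriole duplication factor, had 73.0, 74.5 and 76.6 against 94.3, 97.7 and 93.8. The end of Gatad2b, a subunit of the NuRD chromatin complex, had 75.7, 82.7 and 76.1 against 97.4, 97.3 and 94.7. These values were tight within each line, and the same held for the kinase gene Vrk1, at 81.5, 86.2 and 86.2 against 99.1, 97.7 and 95.3. Regions inside Tiam1, an activator of Rac, and Ccdc50, at the ends of Ubp1, Mtfr1 and the proteasome receptor gene Adrm1, and near Ip6k3 completed the 10 with the smallest p.

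Genes were then read by pathway. Of 21627 coding genes, 9384 had a region within 1 kb of an end. Of these 9384, 78 had a gained region there (0.831%) and 53 a lost one (0.565%). Of 4894 with an end region in all 6 libraries, 275 had all Res499 values higher (5.62%) and 258 all lower (5.27%), with a median difference of −0.22 points. These shares are the background for the counts of each list. In bulk samples, fewer cells with an open region and less opening per cell cannot be told apart.

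Antigen presentation genes had regions of both kinds. In the list of MHC class I and antigen processing genes, 13 of 17 had an end region, with 9 to 10 open in a Res499 library and 7 to 8 in an untreated one, a difference that was not tested. Over all coding genes the numbers open were also higher at the top of their range in Res499, 7238 to 7679 against 7119 to 7395. Tap1, the transporter that carries peptides to MHC class I molecules, and Psmb9, a subunit of the immunoproteasome, share 1 region over their starts (chr17:34187124-34188038). This region had percentiles of 60.1, 81.2 and 71.4 in Res499, was not among the used peaks of untreated replicate 1 and had 12.7 and 8.89 in replicates 2 and 3. All Res499 values were higher. With uncalled regions set to 0, the difference was 63.7 points (SE 18.4, 95% interval 23.6 to 104), which did not pass over all regions called in at least 3 libraries (limma adjusted p = 0.668). The region was singled out after its values were seen, and it had a peak in the full lists of all 6 libraries.

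Other members of that list pointed the other way. The end of Calr, the chaperone calreticulin of the peptide-loading complex, had percentiles of 87.0, 55.5 and 75.4 in Res499 and of 91.5, 91.9 and 94.0 in untreated B16. The end of Pdia3, its partner disulfide isomerase, had 79.8, 68.0 and 90.1 against 90.5, 92.1 and 90.7. Psme2, an activator subunit of the proteasome, had 42.3, 53.0 and 44.5 against 64.8, 71.3 and 92.7. These were 3 of the 5 list genes open in all 6 libraries, and the median difference of the 5 was −15.90 points, with limma adjusted p = 0.831 for each of the 3. The end of B2m, the light chain of MHC class I, had 36.1, 70.1 and 73.1 against 85.6, 47.1 and 86.4, which overlapped. Heavy-chain ends were called in Res499 libraries only, H2-K1 in 1, H2-D1 in 2 and H2-Q4 in 1, all at percentiles under 50. These genes have near-identical copies, so reads may be split among them, and the untreated full lists held a peak at each in 2 libraries.

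Most interferon-stimulated genes, like most coding genes, had no end among the used peaks. Of 30 listed genes 12 had an end region, against 9384 of 21627 coding genes. Of the listed genes, 6 to 8 were open in a Res499 library and 8 to 10 in an untreated one. The shared region over the start of Stat2, a transcription factor of the type I interferon response, had percentiles of 90.0, 60.8 and 77.8 in Res499 and of 6.79, 54.9 and 58.8 in untreated B16. All Res499 values were higher, though the lowest of them was close to the highest untreated ones. Irf1, a transcription factor induced by interferon, had 23.3, 27.8 and 33.1 against 29.4, 45.3 and 24.3, which overlapped.

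Receptors and kinases of that pathway were open in both lines. Of the 18 genes of interferon receptors, JAK kinases, STATs and their inhibitors, 17 had an end region, and 11 were open in all 6 libraries with a median difference of 0.93 points. Stat2 alone had all Res499 values higher and none had all lower. Among 18 genes of ligands for T cell receptors, 8 had an end region. The end of Cd274, which encodes PD-L1, had percentiles of 28.6, 49.5 and 44.0 in Res499 and of 5.81, 11.9 and 36.0 in untreated B16, a difference of 22.8 points (95% interval −9.42 to 55.0, limma adjusted p = 0.831). The end of Icosl, a costimulatory ligand, was called in Res499 replicate 3 alone at 17.6 and in untreated B16 at 45.9, 49.8 and 53.8.

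Of the pigment genes, Tyrp1 alone was lost and 0 were gained. In the list of melanin synthesis and melanosome genes, 10 of 16 had an end region and 2 were open in all 6 libraries. Of these, the region at Pmel, a structural protein of the melanosome, had percentiles of 81.9, 65.8 and 44.7 in Res499 and of 65.3, 89.8 and 91.6 in untreated B16. It is shared by the ends of several coding genes, and the only annotated start under it was that of Rab5b, not Pmel. The region at Rab32, a GTPase of melanosome traffic, had 78.9, 59.9 and 2.77 against 31.5, 30.1 and 64.1. The start of Tyrp1, an enzyme of melanin synthesis, was called in untreated B16 only, at percentiles of 4.62, 1.98 and 10.2. These were among the weakest peaks used, and in the full list of Res499 replicate 3 the region ranked 9948. Tyr, the rate-limiting enzyme, was called in 1 library of each line. Dct, a further enzyme of the pathway, had 0.233 and 63.1 in Res499 replicates 1 and 2 and 55.4 and 72.6 in untreated replicates 1 and 3. Slc24a5 was called in Res499 replicates 1 and 3 only, at 26.3 and 13.4, and Slc45a2 in Res499 replicate 2 only, at 13.9. Rab27a was called in untreated replicate 2 only, at 8.26. Each of these regions had a peak in all 3 full untreated lists. Mitf, the master regulator of the lineage, had 93.5, 64.1 and 93.4 against 87.5, 84.0 and 66.9, and its regulator Pax3 had 76.7, 20.8 and 55.9 against 44.6, 26.7 and 36.8. Both overlapped, and no regulator of melanocyte identity was gained or lost. Among 16 genes of neural crest and dedifferentiation, 7 had an end region and 3 were open in all 6 libraries, with a median difference of −4.96 points. Of these 3, Fn1, which encodes fibronectin, had all Res499 values higher, at 67.9, 33.3 and 37.9 against 23.5, 28.5 and 17.8. Its difference was 23.1 points (limma adjusted p = 0.831). Axl and Snai2 had differences of −5.43 and −4.96 points, and their groups overlapped.

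**Figure D3:**
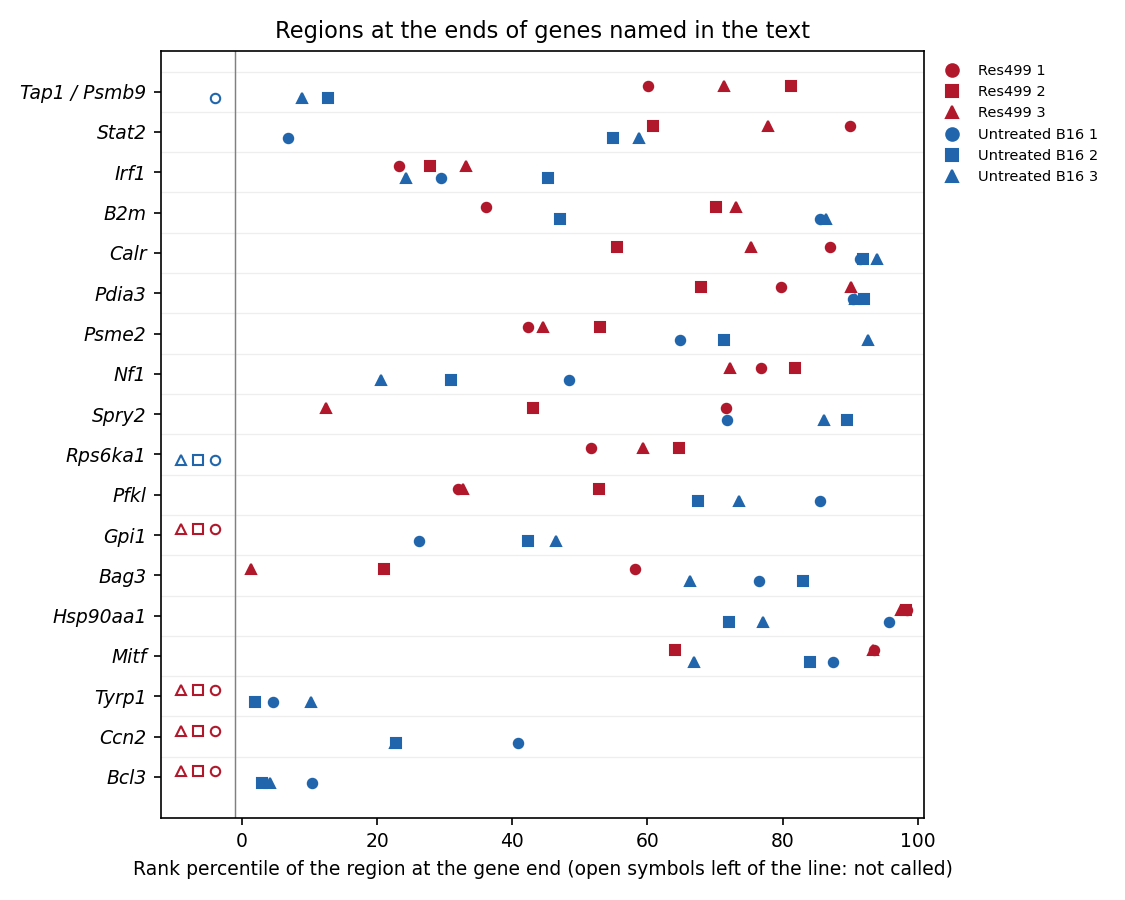
Rank percentile of the region at the gene end (horizontal axis) in each library for genes described in the text (rows). Red symbols are Res499 and blue symbols untreated B16, with 1 shape per replicate number. Open symbols left of the line mark libraries in which the region was not called. Tap1 with Psmb9, Stat2 and Nf1 lie to the right in Res499, and Bag3, Pfkl and Spry2 to the left.

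In the Ras-MAPK cascade, besides the gained region of Rps6ka1, the end of Nf1, the Ras inhibitor neurofibromin, had percentiles of 76.8, 81.9 and 72.2 in Res499 and of 48.4, 30.9 and 20.6 in untreated B16 (difference 43.7 points, SE 13.9, limma adjusted p = 0.831). Dusp5, a phosphatase that inactivates ERK, also had all Res499 values higher, at 72.4, 58.1 and 59.5 against 37.6, 49.8 and 28.3. Spry2, a feedback inhibitor of receptor signalling, had all lower, at 71.7, 43.1 and 12.4 against 71.8, 89.6 and 86.2, although its first Res499 value nearly equalled the lowest untreated one. The list had 16 of 18 genes with an end region and a median difference of −7.13 points over the 8 open in all 6 libraries.

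AP-1 factor genes had somewhat more ends among the used peaks of Res499. Of 15 listed genes 11 had an end region, with 11, 9 and 9 open in the Res499 libraries and 7, 8 and 8 in the untreated ones. The counts lay 1 gene apart at the closest, and their difference was not tested. Over all coding genes Res499 had 7238 to 7679 and untreated B16 7119 to 7395 open. The ends of Fos, Fosb, Mafg and Mafk had a peak in all 3 full untreated lists. Jund, Atf3 and Jdp2 had differences of 19.9, 17.7 and 15.6 points, and Jun and Fosl2 of −10.3 and −16 points. Each of these overlapped, and none passed (limma). The end of Mafk, a small Maf partner, was among the used peaks of Res499 replicates 1 and 3 only, while in the full lists it had a peak in 2 Res499 and 3 untreated libraries.

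Among the Hippo pathway genes, Ccn2, a secreted target of YAP and TEAD, was lost, with percentiles of 40.8, 22.8 and 22.6 in untreated B16 and a rank of 11995 in the full list of Res499 replicate 1. Amotl2, which binds YAP, had all Res499 values lower, at 43.9, 30.0 and 34.6 against 55.5, 63.7 and 52.0. The median over the 6 genes of this list open in all 6 libraries was 0.03 points. Yap1 itself had 69.6, 40.3 and 39.7 against 61.6, 29.0 and 2.18, which overlapped.

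In the NF-kB list, a region 873 bp from Bcl3, an atypical IkB protein, was lost, with untreated percentiles of 10.3, 2.97 and 4.18. It had no peak in any full Res499 list. Neither Relb nor Rel, both subunits of NF-kB, nor the inhibitor gene Nfkbia differed beyond the spread, and the median over the 4 list genes open in all 6 libraries was 1.47 points.

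Glycolysis and stress genes held several regions that were weaker in Res499. The end of Gpi1, glucose-6-phosphate isomerase, was lost, with untreated percentiles of 26.2, 42.3 and 46.4. The end of Pfkl, the liver form of phosphofructokinase, had 31.9, 52.8 and 32.7 in Res499 against 85.5, 67.5 and 73.6 (difference −36.4 points), and that of Pfkp, the platelet form, was called in Res499 replicate 1 alone at 20.1 and in untreated B16 at 67.0, 36.9 and 59.5. The median over the 8 glycolysis genes open in all 6 libraries was still 0.95 points, and Eno1, Hk2 and Pkm had differences of −0.868, 2.77 and 6.08 points. Of 18 genes of amino acid and unfolded protein stress, 9 to 12 were open in a Res499 library and 13 to 14 in an untreated one, against 7238 to 7679 and 7119 to 7395 of all coding genes. The difference of these counts was not tested. Over the 6 genes of this stress list open in all 6 libraries the median was −1.10 points, and 0 had all Res499 values lower or all higher. Slc7a5, a carrier of large amino acids, was lost at untreated percentiles of 12.7, 22.0 and 15.9, and Psat1, an enzyme of serine synthesis, had 8.69 and 13.2 in 2 Res499 libraries against 31.5, 31.1 and 63.9.

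Heat shock genes split. The end of Hsp90aa1, the inducible HSP90, had percentiles of 98.4, 98.3 and 97.6 in Res499 against 95.8, 72.1 and 77.1, and the end of Bag3, a co-chaperone of HSP70, had 58.1, 21.0 and 1.37 against 76.5, 83.0 and 66.3. Hspa8, the constitutive HSP70, had all Res499 values lower too, at 71.5, 78.9 and 52.5 against 85.1, 83.7 and 92.8. These were 1 higher and 2 lower of 10 list genes open in all 6 libraries, and limma gave an adjusted p of 0.831 for each. An intergenic region 6640 bp from an end of Hsp90aa1 went the other way and was lost, at untreated percentiles of 55.2, 49.6 and 58.1.

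In the list of DNA replication and mitosis, 23 of 24 genes had an end region and 14 were open in all 6 libraries, with a median difference of −0.61 points. Mcm10, a replication initiation factor, was lost, with untreated percentiles of 14.1, 57.7 and 84.1. None of the other list genes had groups that did not overlap. The SWI/SNF list, subunits of a chromatin remodelling complex, had 15 of 20 genes with an end region, 0 gained or lost and a median difference of −0.65 points over 5 genes.

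Chromosome 5 took a larger share of the Res499 peaks and chromosome X a smaller one. Chromosome 5 held 6.32%, 6.60% and 6.56% of the used peaks in Res499 and 5.80%, 5.35% and 5.38% in untreated B16, a ratio of 1.18. It was the only 1 of 20 chromosomes (5%) whose share was higher in all Res499 libraries. In the libraries of interferon-exposed B16 cells the share was 5.70%, 5.94% and 5.76%. The difference was 1.11 points within the short class and 0.966 within the long class, where the sign was fixed because the groups do not overlap. The two-sided exact permutation p was 0.1 (n = 3 each, adjusted p = 0.333 over 20 chromosomes), so it did not pass.

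The regions of chromosome 5 also ranked higher. Over the 280 called in all 6 libraries, the mean percentile was 64.4, 65.8 and 66.2 in Res499 and 60.8, 60.8 and 59.9 in untreated B16, a difference of 4.99 points (two-sided exact permutation p = 0.1, n = 3 each, adjusted p = 0.333). Of these 280 regions, 25 (8.93%) had all Res499 values higher and 10 (3.57%) all lower. Chromosomes 1 and 10 had higher mean percentiles in all Res499 libraries too, so 3 of 20 (15.0%) did, and 7, 12 and 17 had lower ones (15.0%). Chromosome 5 had 10 gained and 6 lost regions among its 879 regions, against 86 gained and 142 lost among all 14452. Those gained on chromosome 5 included the ends of Med28, a Mediator subunit, Dnajc2, Coq2, Ift81 and Hectd4.

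The higher share was seen along much of the chromosome. In blocks of 20 Mb, 5 of the 8 blocks of chromosome 5 had more used peaks in each Res499 library than in any untreated one, against 12 of 129 blocks (9.30%) in the genome. They were the 4 blocks from 0 to 80 Mb, with ratios of 1.26, 1.21, 1.35 and 1.23, and the block from 120 to 140 Mb, with 1.30. The blocks from 80 to 120 Mb and from 140 to 160 Mb overlapped, with ratios of 0.966, 1.05 and 1.03. Copy number was not measured here, and its part in these shares was not tested.

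**Figure D4:**
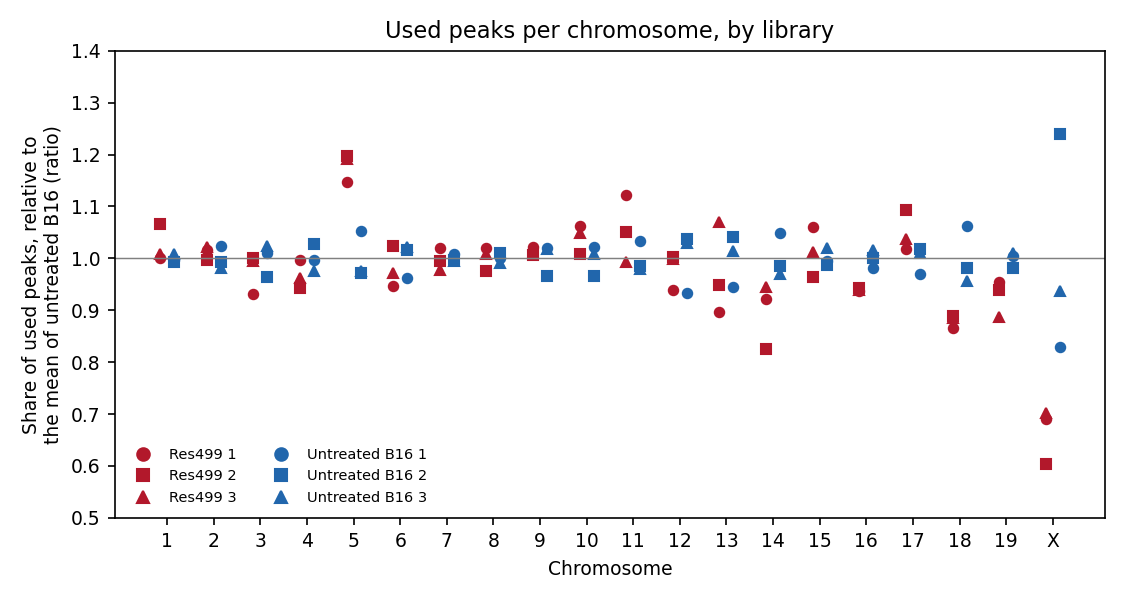
Share of used peaks on each chromosome (horizontal axis) in each library, divided by the mean of the 3 untreated B16 libraries (vertical axis, ratio). Each symbol is 1 library and the grey line marks a ratio of 1. Res499 lies above all untreated libraries on chromosome 5 and below them on 14, 16, 18, 19 and X.

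On 5 of 20 chromosomes (25%) the share was lower in all Res499 libraries. Chromosome X had the lowest ratio, 0.662, with 1.09%, 0.955% and 1.11% of used peaks in Res499 and 1.31%, 1.96% and 1.48% in untreated B16 (two-sided exact permutation p = 0.1, n = 3 each, adjusted p = 0.333). The other ratios were 0.896 for chromosome 14, 0.941 for 16, 0.879 for 18 and 0.927 for 19. Untreated replicate 2 had the highest share of X and lay apart from the other two. The difference on X was −0.944 points within the short class, where that replicate is the only untreated library, and −0.288 within the long class. The sign of both was fixed too, since the groups do not overlap on X. The interferon-exposed libraries had 1.39%, 1.67% and 1.18%.

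X had 0 gained and 9 lost regions. The 9 lost regions of X lay at the ends of Txlng, Enox2, Rp2, Cetn2, Nono, Pdha1, Aifm1, Mpp1 and Naa10. Txlng had the highest untreated percentiles of the 9 on average, 48.2, 92.4 and 42.9, and Enox2 had 11.5, 76.1 and 40.9. Pdha1, the E1 alpha subunit of pyruvate dehydrogenase, had 27.6, 43.0 and 32.8 and was listed in Res499 replicate 1 at rank 15335. Nono, an RNA-binding protein of nuclear paraspeckles, had 47.1, 22.8 and 36.2 and was listed in Res499 replicates 1 and 3 at ranks 9465 and 9934. The blocks from 0 to 20 Mb and from 60 to 80 Mb of X had fewer used peaks in each Res499 library, with ratios of 0.701 and 0.655, against 6 of 129 blocks (4.65%) in the genome.

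The sequences before the starts differed between gained and lost regions in what was searched. Of 86 gained regions 61.6% lay over at least 1 annotated start, as did 29.6% of 142 lost regions, 51.7% of all regions and 76.6% of those called in all 6 libraries. The 57 starts under gained regions had a median GC content of 64.4% and the 49 under lost regions 56.0%, against 62.4% for the 10026 starts under any region. The 250 bases before each start were searched on both strands for 13 short motifs, and a match is a description of the letters only.

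The cAMP response element, TGACGTCA, was found before 6 starts under gained regions (10.5%) and 1 under lost regions (2.04%), against 3.20% of starts under any region and 1.56% of all 32619 starts. The 6 included Rpl26 and Klc1, where it lay 134 to 127 and 33 to 26 bases before the start in the sequences printed above. The AP-1 motif, TGANTCA, was found before 6 (10.5%) and 0 starts, against 3.39% and 6.78%. It can overlap the M-box core, as before Slc38a7, where it spans bases 45 to 39 and the M-box core bases 49 to 44.

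The TEAD motif, GGAATG, was found before 17.5% of starts under gained and 8.16% under lost regions, against 9.37% under any region and 12.6% of all starts. Rps6ka1 has it at bases 90 to 85. The core of the M-box bound by MITF, CATGTG, was found before 9 starts under lost regions (18.4%) and 5 under gained ones (8.77%), against 5.97% under any region and 12.3% of all starts. Tyrp1 has it at bases 46 to 41 and Pdha1, on the other strand, at bases 92 to 87. The region called at Tyrp1 covers 122 of the 250 bases printed, which include it.

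The interferon-stimulated response element, a pair of GAAA with 2 bases between, was found before 0 starts of either set, against 2.10% under any region and 2.99% of all starts. It is present before Stat2, on the other strand, at bases 222 to 213. The GC box, GGGCGG, was found before 52.6% and 40.8% of starts, against 65.8% under any region, and it lies before Tap1 on the other strand at bases 176 to 171. The other motifs were CCGGAAGT for ETS factors, CCAAT for NFY, AAGATGGCG for YY1, the E-box CACGTG, the interferon gamma element TTCNNNGAA, the TATA box TATAAA and AACAATG for SOX factors. They were found before 8.77%, 28.1%, 3.51%, 12.3%, 5.26%, 3.51% and 0 of starts under gained regions in that order. Under lost regions the shares were 8.16%, 32.7%, 0, 4.08%, 2.04%, 6.12% and 0, and under any region 7.36%, 37.1%, 1.52%, 9.19%, 5.40%, 4.52% and 1.37%. With 57 and 49 starts, a share of about 10% rests on 5 or 6 sequences.

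**Figure D5:**
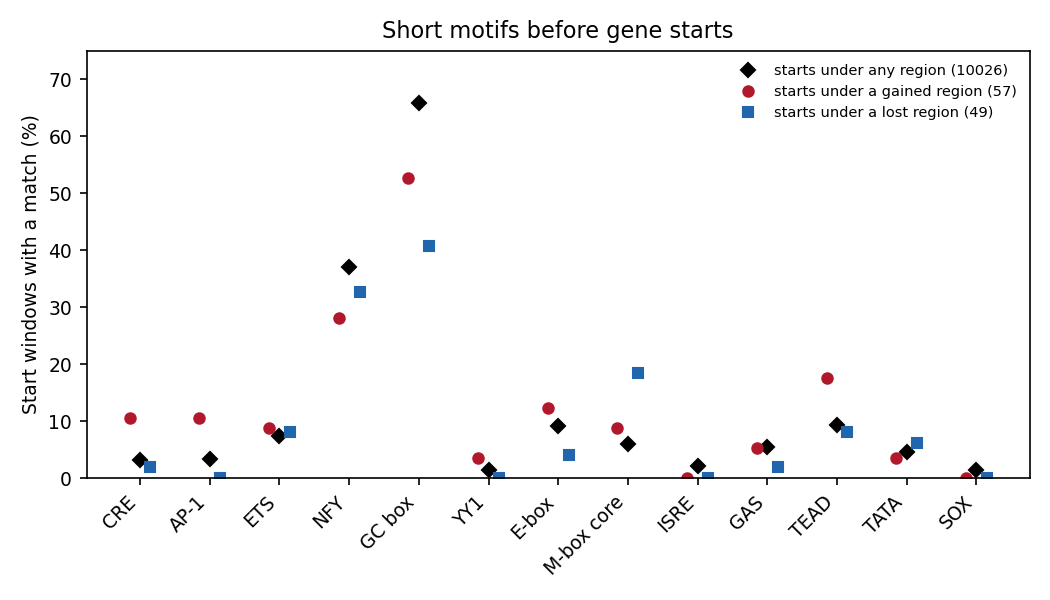
Percentage of start windows (vertical axis) with a match to each of 13 short motifs (horizontal axis) in the 250 bases before the start. Black diamonds are starts under any region (10026), red circles starts under gained regions (57) and blue squares starts under lost regions (49). The cAMP response element and AP-1 motif were at 10.5% under gained regions, and the M-box core at 18.4% under lost ones.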

How the data were processed

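The deposited lists hold peaks called per library, not on pooled replicates, on GRCm38 (mm10). CASAVA, cutadapt 1.9, Bowtie2 2.2.4 and MACS2 were used, per the submitters' processing notes. The peak caller's version and settings, and whether reads were shifted, are not given in the sources used here. The deposited values per peak are the authors' fold enrichment (a ratio), −log10 p-value, −log10 q-value and score. Only ranks within a list were used, by the −log10 p or, as an alternative, the fold. Each list was cut to its 9214 top peaks, so a call is relative to the other peaks of its library.

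Percentiles of regions called in all 6 libraries were compared with limma 3.58.1 in R 4.3.3 (empirical Bayes with a trend, tested on simulated data) and Benjamini-Hochberg adjustment, group values by two-sided exact permutation tests. Tables were made with Python 3.11.15 and pandas 2.3.3. Gene ends came from a RefSeq table of GRCm38.p6 without strand or exons, so exons, introns and UTRs are not stated. All 333 list names matched. Starts came from a second RefSeq table, with strand.

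The members and the lists were chosen with earlier results of these data known. The rule for named genes took the 10 gained and 10 lost regions of best mean rank. From regions called in all 6 libraries it took 10 in each direction, by largest difference among those past the threshold and, since none passed, by smallest p where groups did not overlap. It added up to 4 members per list, 9 genes always (1 of them is not reported here) and the gained and lost X-linked genes. Alternatives changed the ranking column, list length, merging, overlap, call rule, rank scale, filter, trend, replicate block and libraries used. Peaks on chromosomes Y and M were left out.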

Additional observations from a re-analysis of the deposited data

How the results depend on the processing

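The counts of gained and lost regions depended on how a call was made. Over all deposited peaks 8 regions were gained and 1212 lost, with a peak required to cover 50% of the region 29 and 616, and with 1 missing library allowed 741 and 988. Lists of 4607 peaks gave 62 lost regions. A rule of no peak anywhere in the other line, chosen after seeing the data, left 3 gained and 44 lost. With 1 library left out, gained regions numbered 143 to 238 and lost regions 227 to 410, since fewer calls are then needed. Ranking by fold enrichment kept 48 of the 86 gained regions (55.8%) and 85 of the 142 lost ones (59.9%), and lists of 4607 peaks kept 2 and 3. The limma counts stayed at 0 under the alternatives run, except that normal scores gave 1 higher region, the one on chromosome 9 beside the assembly gap (adjusted p = 0.0179). The replicate numbers did not pair the samples: deviations of same-numbered libraries correlated at 0.0747, 0.0432 and 0.0212, and replicate 2 did not correlate best with its own number. With the number as a replicate block 0 regions passed in either direction, and 131 higher and 152 lower had an unadjusted p under 0.05 (limma). Class shares kept their sign except in classes whose groups overlapped. Where groups did not overlap, leaving out a library or splitting by fragment class could not change the sign. Shared coding ends, at 0.105 points, ran from −0.208 (without Res499 replicate 1) to 0.427 with 1 library left out, were −0.127 without untreated replicate 2, and were −0.445 within the long class. Far intergenic regions, at −0.177 points, ran from −0.476 to 0.186 (without Res499 replicate 1) and were 0.380 within the long class. Values within the fragment classes, and the fit with the class as a term, were added after seeing the data. The shares of chromosomes 5, 14, 16, 18, 19 and X kept their direction in the 60 values recomputed for them. These chromosomes were taken because their groups do not overlap, so values from fewer libraries or 1 fragment class could not reverse. Only ranking by fold enrichment and lists of 4607 peaks could have changed the direction, and neither did. Of the chromosomes whose groups overlapped, 3, 7, 8, 9, 11, 12 and 13 changed sign within at least 1 fragment class. Reads per library are not in the lists, so a region that is uncalled may still be open.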

Other observations

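On chromosome Y, Res499 replicate 1 had 3 peaks in the full list and replicates 2 and 3 had 0, and untreated B16 had 3, 5 and 5. On chromosome M the numbers were 11, 7 and 3 in Res499 and 3, 12 and 3 in untreated B16. These chromosomes were outside the comparison.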
